A study of Mus musculus with 3 samples.

Results

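The insulin and IGF1 signalling genes are 10 genes chosen by name, which 18 array probes measure among the 39429 probes of the array, and all 18 probes passed the filter on dim signals. They are the ligand Igf1, the receptors Insr and Igf1r, the adaptors Irs1 and Irs2, the PI3-kinase subunit Pik3r1, the binding proteins Igfbp4 and Igfbp5, and the transcription factors Foxo1 and Foxo3. RNA came from the hippocampus of male mice killed by cervical dislocation at postnatal day 120. The tested sons had mothers of advanced maternal age (AMA, 15 to 18 months at pairing), and the control sons had mothers of young maternal age (YMA, 3 months); fathers were 3 months old in both groups. The strain is not given in the sources used here, and the labels name no allele or drug. On each of 3 arrays, Cy3 labelled a pool of older-mother sons and Cy5 a pool of young-mother sons, and each pool combined equal RNA from 3 males of a group, so differences between animals inside a pool are averaged out. The dye was never swapped, so for any single probe the group and the dye cannot be told apart.

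Insulin and IGF1 bind related receptor tyrosine kinases, which phosphorylate the adaptors IRS1 and IRS2. The adaptors recruit PI3-kinase, AKT is switched on, and AKT keeps the FoxO transcription factors out of the nucleus. In the hippocampus the pathway is known for its part in neuronal survival, growth of neurites, adult neurogenesis and synaptic plasticity. FoxO proteins in turn are known activators of Irs2 and Insr, so the pathway has a feedback loop at the level of transcription.

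Net of local background, spots had a median of 58.0 to 62.3 intensity units in Cy3 and 153 to 165 units in Cy5 across the 3 arrays, 64.6% to 66.7% of spots were well above background in Cy3 and 71.0% to 74.9% in Cy5, and 0 spots were saturated. The number of arrays limits the precision. All 9 markers of hippocampal neurons on the list used here (among them Prox1, Wfs1 and Neurod6) were well above background in both dyes on all 3 arrays, and so were all 12 choroid plexus and all 12 leptomeningeal markers.

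The comparison asks which of these genes differ in the hippocampus of adult sons according to the mother's age. Irs2 rose by 0.51 ± 0.09 on the log2 scale (SD, n = 3), a 1.43-fold difference, and it was the only member whose brightest probe passed the test (limma adjusted p = 0.0143). Thus 1 of 10 members was higher and 0 lower, against 7.34% higher and 12.2% lower among all 17965 genes. An unadjusted limma p under 0.05 was found for 5 of the 10 members, and for 39.5% of all genes. Array weights, 1 of the alternatives, called 4 members higher and 1 lower, and of all genes 19.5% higher and 29.8% lower. The other 9 had log2 ratios no larger than 0.22 in size, with limma adjusted p from 0.0674 to 0.571. Foxo1 was the next highest, and the dimmer of its 2 probes passed while the brighter did not. The median absolute log2 ratio of the members was 0.13, against 0.11 over all genes. In 7 of 10 members the ratio had the same sign on all 3 arrays, which was also seen for 60.6% of all genes. In 5 of 10 members the levels of the older-mother and young-mother pools did not overlap, and 42.6% of all genes had no overlap. The older-mother pools lay above in Insr, Irs2 and Foxo1 (16.7% of all genes) and below in Irs1 and Igfbp4 (25.9% of all genes).

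**Figure D1:**
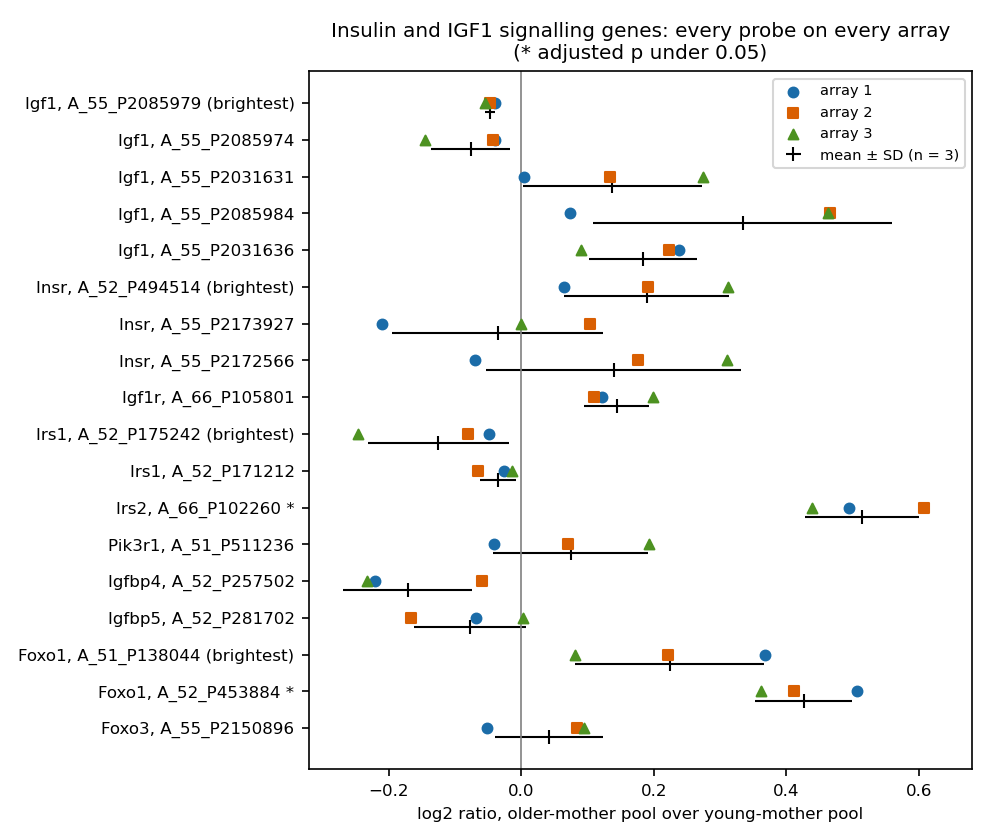
Log2 ratio of the older-mother pool over the young-mother pool (x axis) for each of the 18 probes (rows, named by gene and probe), with a symbol per array and the mean ± SD of the 3 arrays as a bar. The 3 symbols of Irs2 lie between 0.44 and 0.61, and those of the dimmer Foxo1 probe between 0.36 and 0.51, and the 3 symbols of a probe spread most for the Igf1 probe with the mean of 0.33.

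Igf1, the ligand, is made in the brain by neurons and microglia. Its brightest probe lies at chr10:87378456-87378515 (mm9, the build named in the file headers). This probe had normalized log2 intensities of 10.08, 9.998 and 9.92 in the older-mother pools, against 10.12, 10.05 and 9.98 in the young-mother pools. The older-mother value was slightly the lower on each array, and the groups overlapped. The mean log2 ratio was -0.05 ± 0.01 (SD, n = 3), with a 95% interval of the limma fit from -0.15 to 0.06 and a limma adjusted p of 0.446.

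The 4 other Igf1 probes, which the array files assign to a different RefSeq transcript from the brightest, did not all have its sign. The probe at chr10:87399581-87399640 had a log2 ratio of -0.08 ± 0.06 (SD, n = 3). The other 3 were above 0, at 0.14 ± 0.13, 0.33 ± 0.23 and 0.18 ± 0.08 (each SD, n = 3). The probe with 0.33 (chr10:87393561-87393620) read 0.07, 0.47 and 0.46 (log2 ratio) and did not pass (limma adjusted p = 0.0562). It shares 40 of its 60 bases with the probe that had 0.14 (chr10:87393581-87393640), so the 2 are not separate measurements. The 3 probes above 0 are the dimmest, with an older-mother signal of 38.5 to 83.7 units over background, against 557 to 591 units for the brightest. With the mean over all 5 probes the log2 ratio of Igf1 turned to 0.11 (limma adjusted p = 0.141), so no direction is given for Igf1.

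The receptors Insr and Igf1r are tyrosine kinases of the same family. Insr, the insulin receptor, had normalized log2 intensities of 8.02, 8.16 and 8.19 in the older-mother pools, against 7.96, 7.97 and 7.88 in the young-mother pools, by its brightest probe (chr8:3151667-3151726). The groups did not overlap, and array 3 had the widest gap. The mean log2 ratio was 0.19 ± 0.12 (SD, n = 3), with a 95% interval from 0.04 to 0.34, and it did not pass (limma adjusted p = 0.0817). The 2 dimmer Insr probes had -0.04 ± 0.16 and 0.14 ± 0.19 (each SD, n = 3), and both changed sign between arrays.

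Igf1r, the IGF1 receptor, has 1 probe (chr7:75378461-75378520). Its normalized log2 intensity was 10.99, 11.14 and 11.20 in the older-mother pools, against 10.87, 11.03 and 11.00 in the young-mother pools. The ratio was above 0 on every array, and the groups overlapped because array 1 was low in both dyes. The mean log2 ratio was 0.14 ± 0.05 (SD, n = 3), with a 95% interval from 0.03 to 0.26, and it did not pass (limma adjusted p = 0.0788). Under median centring, which leaves the dependence of the dye difference on brightness in place, Insr became -0.047 and Igf1r -0.45, where the median of all genes was -0.40.

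Irs2, an adaptor that the insulin and IGF1 receptors phosphorylate, was the member that changed most. Its probe (chr8:11004490-11004549, mm9, minus strand) is shown because this call rests on it alone. The brighter of the 2 Foxo1 probes (chr3:52150183-52150242, plus strand) is shown beside it. That Foxo1 probe did not pass, while its dimmer partner, which is not printed, did. Each printed probe is 60 bases long.
Irs2 probe A_66_P102260: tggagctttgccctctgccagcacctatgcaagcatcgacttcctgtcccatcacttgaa
Foxo1 probe A_51_P138044: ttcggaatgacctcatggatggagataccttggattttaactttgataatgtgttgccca

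Irs2 had normalized log2 intensities of 12.72, 12.81 and 12.64 in the older-mother pools, against 12.22, 12.20 and 12.20 in the young-mother pools. All 3 older-mother pools lay above all 3 young-mother pools, and the young-mother pools differed little from each other. The log2 ratios were 0.49, 0.61 and 0.44 on arrays 1, 2 and 3, with a 95% interval of the limma fit from 0.38 to 0.64. The deposited value table gave 0.52, 0.57 and 0.42. Without replicate 3 the log2 ratio was 0.55 and the limma adjusted p was 0.0515; over all alternatives the limma adjusted p ran from 0.00154 to 0.0639. Under median centring the log2 ratio was -0.14, which is 0.26 above the all-gene median of that setting. That median covers genes of all brightness, so it is not a matched baseline for a bright probe. The direction of Irs2 depends on how the dye difference at high brightness is removed.

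Irs1, the other adaptor, did not move with Irs2. Its brightest probe (chr1:82229692-82229751) had normalized log2 intensities of 9.69, 9.64 and 9.62 in the older-mother pools, against 9.74, 9.72 and 9.87 in the young-mother pools. All older-mother pools lay below all young-mother pools, with the widest gap on array 3. The mean log2 ratio was -0.13 ± 0.11 (SD, n = 3) and did not pass (limma adjusted p = 0.163), and the dimmer probe gave -0.04 ± 0.03 (SD, n = 3). Subtracting the Irs1 log2 ratio from that of Irs2 left 0.54, 0.69 and 0.69, which average 0.64 ± 0.08 (SD, n = 3). A two-sided exact permutation test that flips the sign of each array gave p = 0.25, the smallest it can give with 3 arrays, and 0.50 after Benjamini-Hochberg adjustment over the 4 pairs of related members compared.

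The promoters of these adaptors were read from the RefSeq table (GRCm38.p6), which matched 9 of the 10 members in 10 windows. They are shown because the adaptors had opposite signs in the processing reported here, though Irs1 did not pass. Under median centring both adaptors were below 0, Irs1 at -0.63 and Irs2 at -0.14, where the median of all genes was -0.40. Each line holds the 250 bases before the gene's start, 5′ to 3′ on the gene's strand, and capitals mark the letters of the insulin response element, a sequence that FoxO proteins are known to bind (CAAAACA, here on the opposite strand as TGTTTTG).
Irs2 promoter, chr8:11008930-11009179, minus strand: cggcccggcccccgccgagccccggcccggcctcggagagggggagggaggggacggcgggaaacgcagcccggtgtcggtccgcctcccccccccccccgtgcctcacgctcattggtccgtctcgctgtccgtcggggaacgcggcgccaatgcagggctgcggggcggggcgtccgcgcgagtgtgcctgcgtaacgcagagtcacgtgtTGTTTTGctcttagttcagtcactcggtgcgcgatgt
Irs1 promoter, chr1:82291440-82291689, minus strand: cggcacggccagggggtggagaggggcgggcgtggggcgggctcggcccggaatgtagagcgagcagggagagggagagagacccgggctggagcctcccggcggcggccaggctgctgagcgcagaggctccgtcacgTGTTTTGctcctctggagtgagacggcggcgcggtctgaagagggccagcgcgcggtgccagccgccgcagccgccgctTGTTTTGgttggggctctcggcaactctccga

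In the Irs2 window the element covers bases 37 to 31 before the start, and the Irs1 window holds it at bases 111 to 105 and 32 to 26. Both windows hold these letters, that of Irs2, which passed as higher, and that of Irs1, which did not pass. Whether the letters have a part in either ratio was not tested. Searched on both strands, CAAAACA is in 5.56% of all 32851 promoter windows of the same length, and among the members' windows only these of Irs1 and Irs2 hold it. The other FoxO sequence searched, GTAAACA, is in 3.17% of all windows and in 0 of the members' 10.

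Pik3r1 encodes the p85-alpha regulatory subunit through which PI3-kinase docks on the adaptors. Its probe (chr13:102454406-102454465) had normalized log2 intensities of 8.49, 8.71 and 8.79 in the older-mother pools, against 8.53, 8.64 and 8.59 in the young-mother pools. The groups overlapped, and array 1 had the opposite sign from arrays 2 and 3. The mean log2 ratio was 0.07 ± 0.12 (SD, n = 3), with a 95% interval from -0.07 to 0.22 and a limma adjusted p of 0.389.

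Igfbp4 and Igfbp5 are secreted proteins that hold IGFs and limit or present them to the receptor. Igfbp4 (chr11:98913334-98913393) had normalized log2 intensities of 8.42, 8.47 and 8.33 in the older-mother pools, against 8.64, 8.53 and 8.56 in the young-mother pools. It was the lowest member by log2 ratio, and the groups did not overlap. The log2 ratio was -0.17 ± 0.10 (SD, n = 3), with a 95% interval from -0.31 to -0.04, and it did not pass (limma adjusted p = 0.0791); without any background correction its limma adjusted p was 0.0366.

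Igfbp5 (chr1:72904829-72904888) had normalized log2 intensities of 11.42, 11.23 and 11.40 in the older-mother pools, against 11.49, 11.39 and 11.40 in the young-mother pools. The groups overlapped, and array 3 showed almost no difference. The log2 ratio was -0.08 ± 0.08 (SD, n = 3), with a 95% interval from -0.21 to 0.05 and a limma adjusted p of 0.315.

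**Figure D2:**
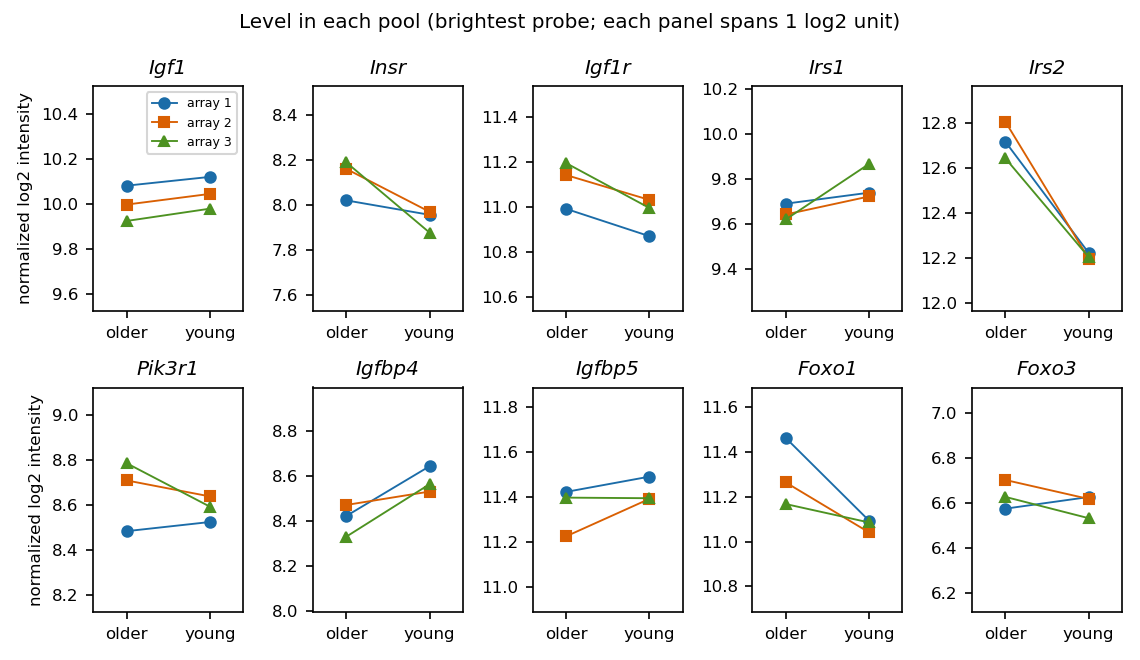
Normalized log2 intensity (y axis) in the older-mother pool (left) and young-mother pool (right) of each array, joined by a line, for the brightest probe of each member; every panel spans the same range of intensities. Irs2 has the steepest lines, with older-mother pools from 12.64 to 12.81 and young-mother pools from 12.20 to 12.22, and the lines of Pik3r1 and Foxo3 run in different directions.

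Foxo1 and Foxo3 are the transcription factors that insulin signalling shuts out of the nucleus. By the brighter probe shown above, Foxo1 had normalized log2 intensities of 11.46, 11.26 and 11.17 in the older-mother pools, against 11.09, 11.04 and 11.08 in the young-mother pools. The groups did not overlap, but the gap on array 3 was narrow. The log2 ratio was 0.22 ± 0.14 (SD, n = 3), with a 95% interval from 0.06 to 0.39, and it did not pass (limma adjusted p = 0.0674).

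The dimmer Foxo1 probe (chr3:52153289-52153348) had normalized log2 intensities of 10.83, 10.77 and 10.75 in the older-mother pools, against 10.33, 10.36 and 10.39 in the young-mother pools. The groups stood clearly apart. The log2 ratio was 0.43 ± 0.07 (SD, n = 3), a 1.34-fold difference, and it passed (limma adjusted p = 0.0152), as did 7.92% of all probes in this direction and 18.6% in either. Without replicate 3 the limma adjusted p of this probe was 0.0515. With the mean of both probes Foxo1 had a log2 ratio of 0.33 and a limma adjusted p of 0.0234. Under median centring the brighter and the dimmer probe were at -0.38 and -0.14. These lie 0.03 and 0.26 above the median of all genes there, which is not matched for brightness.

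Foxo3 was measured near the detection limit by its probe (chr10:41905610-41905669): it was well above background on 1 of 3 arrays in the older-mother pools and on 3 of 3 in the young-mother pools. Its normalized log2 intensity was 6.58, 6.70 and 6.63 in the older-mother pools, against 6.63, 6.62 and 6.53 in the young-mother pools. The groups overlapped, and the log2 ratio of 0.04 ± 0.08 (SD, n = 3) did not pass (limma adjusted p = 0.571). Its sign turned with Agilent's processed signals (-0.24) and without background correction (-0.027), and under median centring it was 0.48 (limma adjusted p = 0.000352). At this signal no direction can be read for Foxo3.

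**Figure D3:**
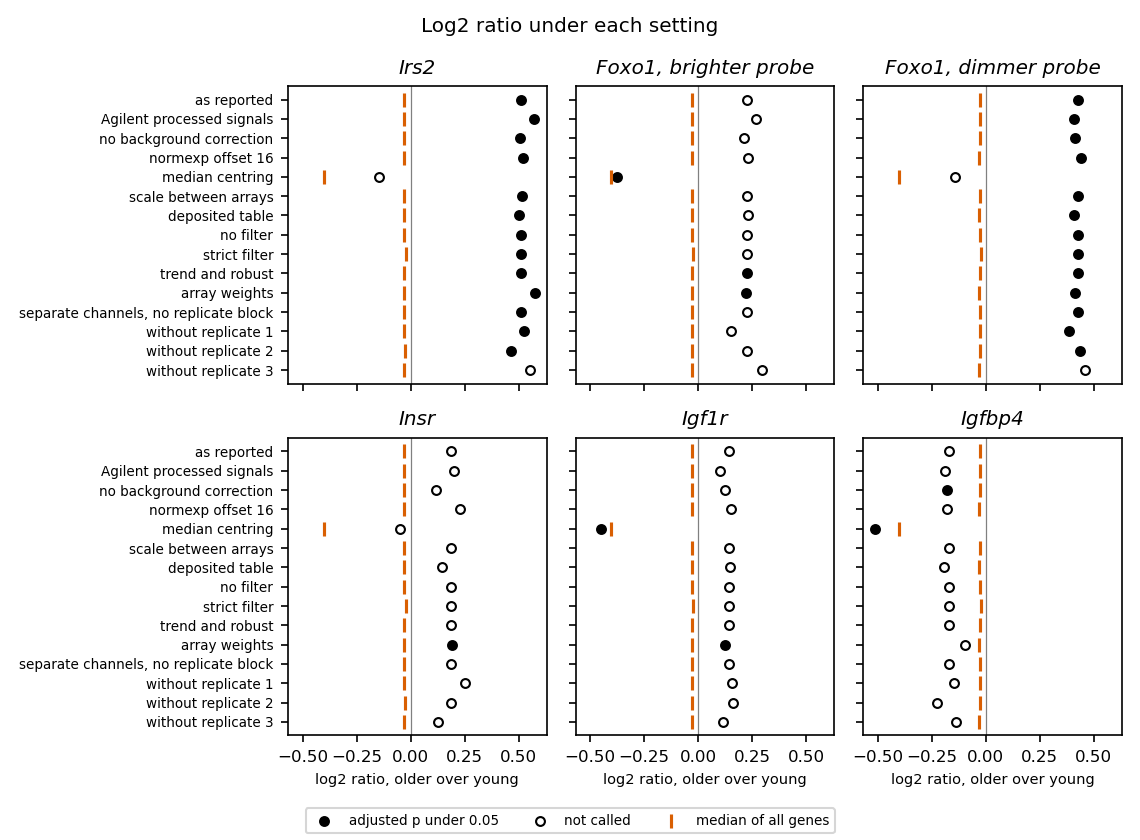
Log2 ratio of older over young mothers (x axis) for 6 member probes under each processing setting (rows); filled points have a limma adjusted p under 0.05, open points do not, and the orange ticks mark the median of all genes under that setting. Irs2 and the dimmer Foxo1 probe stay between 0.39 and 0.58 except under median centring, where they are at -0.14 and the all-gene median is at -0.40.

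Among the other genes of the pathway, 78 of 85 listed genes were measured, of which 16 rose (20.5%) and 3 fell (3.85%), and 59 did not pass. Over all genes 7.34% were higher and 12.2% lower, and the list median of 0.02 stood beside -0.03 for all genes. The lists were chosen with earlier results of these data known, so these shares are no independent test of the pathway. All 16 had a ratio above 0 on all 3 arrays. Without replicates 1, 2 and 3 in turn, 8, 7 and 1 of the 16 stayed called; the 1 was Pdk4. Under median centring 9 of the 16 were below 0, and 15 of the 16 exceeded the all-gene median of that setting, which is not matched for brightness. In that setting Htra1 was at -0.23, Ddit4 at 0.00, Klf15 at -0.0035, and Socs3, Pdk4 and Cdkn1a at 0.54, 0.75 and 0.97.

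Of 11 measured ligands, binding proteins and proteases, 2 rose (18.2%) and 1 fell (9.09%), against 7.34% higher and 12.2% lower among all genes. Htra1, a secreted serine protease that cleaves IGF-binding proteins, had log2 ratios of 0.47, 0.63 and 0.42 and rose by 0.51 ± 0.11 (SD, n = 3, limma adjusted p = 0.0150). Igfbp7, a low-affinity IGF-binding protein of vessels, rose by 0.24 ± 0.13 (SD, n = 3, limma adjusted p = 0.0498), just inside the threshold. Igf2, the fetal growth factor that meninges and choroid plexus keep making in the adult brain, fell, with log2 ratios of -0.62, -1.12 and -0.43 and a mean of -0.72 ± 0.36 (SD, n = 3, limma adjusted p = 0.0268).

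Igfbp2, the main IGF-binding protein of choroid plexus and meninges, had log2 ratios of -0.67, -1.29 and -0.08, and the mean of -0.68 ± 0.61 (SD, n = 3) did not pass (limma adjusted p = 0.0814). Ins2 and Ins1, the mouse insulin genes, whose near-identical sequences make their signals hard to tell apart, had -0.26 ± 0.15 and -0.48 ± 0.42 (each SD, n = 3) and did not pass either (limma adjusted p = 0.0528 and 0.0798). Igf2, Igfbp2, Ins1 and Ins2 all had their lowest ratio on array 2 and the one closest to 0 on array 3. The 12 choroid plexus markers had the same order, with array medians of -0.88, -2.07 and -0.41. All 12 were below 0 on all 3 arrays, and the mean log2 ratio closest to 0 was -0.65. Of these, 4 of 12 passed the test as lower (33.3%, against 12.2% of all genes). The summed normalized intensity of these 12 markers ran from 18430 to 105948 in the older-mother pools, against 117863 to 161807 in the young-mother pools. The 12 leptomeningeal markers had array medians of -0.39, -0.57 and -0.18, and the mean log2 ratio closest to 0 was -0.16. Of these, 9 had the same sign on all 3 arrays, and 6 of 12 passed as lower (50%). They summed to 8650 to 14848 in the older-mother pools, against 12784 to 15750 in the young-mother pools. The log2 ratios of Irs2 (0.49, 0.61 and 0.44) had the same order of size as the choroid plexus medians, with array 2 the largest and array 3 the smallest, and the opposite sign. Those of the dimmer Foxo1 probe (0.51, 0.41 and 0.36) were largest on array 1. Among the other pathway genes, Htra1, Socs3 and Ddit4 had the array order of Irs2, while Pdk4, Cdkn1a and Txnip were smallest on array 1. The order in the remaining called pathway genes is not given here. An order of 3 ratios is no measure of likeness, and the share of all genes with each order was not counted. No grouping of genes is drawn from these orders. The part of choroid plexus and leptomeninges in the ratios of the genes named in this paragraph was not tested. In bulk RNA, fewer cells of a type and less RNA per cell cannot be told apart.

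Of 18 measured receptors, adaptors and their inhibitors, 3 rose (16.7%) and 1 fell (5.56%), against 7.34% higher and 12.2% lower among all genes. Socs3, a cytokine-induced protein that also binds and restrains the insulin receptor and the IRS adaptors, had log2 ratios of 0.77, 0.94 and 0.53 and rose by 0.75 ± 0.21 (SD, n = 3, limma adjusted p = 0.0149). Ptpn1, the phosphatase PTP1B that dephosphorylates the insulin receptor, had a brightest probe that rose by 0.26 ± 0.07 (SD, n = 3, limma adjusted p = 0.0279), while 1 of its 2 other probes had the opposite sign. Sh2b2, which the insulin receptor uses as an adaptor, rose by 0.23 ± 0.11 (SD, n = 3, limma adjusted p = 0.0487). Igf2r, the receptor that carries IGF2 to lysosomes, was the gene of this list that fell, at -0.20 ± 0.07 (log2, SD, n = 3, limma adjusted p = 0.0451).

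Of 30 measured genes of PI3-kinase, AKT and mTOR, 4 rose (13.3%), 0 fell and the other 26 did not pass. Among all genes 7.34% were higher and 12.2% lower. Ddit4, also called REDD1, an inhibitor of mTORC1, had log2 ratios of 0.70, 0.84 and 0.62 and rose by 0.72 ± 0.11 (SD, n = 3, limma adjusted p = 0.0129). Eif4ebp2 and Eif4ebp1, the translation repressors that mTORC1 inactivates, rose by 0.25 ± 0.07 and 0.23 ± 0.06, and Pik3ca, a catalytic subunit of PI3-kinase, by 0.21 ± 0.08 (each SD, n = 3). The core kinases did not pass: Akt1 was at -0.06 ± 0.05, Gsk3b at -0.13 ± 0.08 and Mtor at 0.10 ± 0.06 (each SD, n = 3), with limma adjusted p of 0.403, 0.121 and 0.190. Gsk3b and Mtor had a probe of opposite sign each, and the dimmer Mtor probe, at -0.30, passed the test as lower.

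Of 19 measured FoxO family members and genes known as FoxO targets, 7 rose (36.8%) and 1 fell (5.26%). Among all genes 7.34% were higher and 12.2% lower, and this list was chosen with earlier results of these data known. Pdk4, the kinase that shuts off pyruvate dehydrogenase, had log2 ratios of 1.05, 1.26 and 1.39. Cdkn1a, the cell cycle inhibitor p21, had 0.87, 1.55 and 1.47, and Txnip, a thioredoxin-binding arrestin, 0.47, 0.76 and 0.76. All of them rose (limma adjusted p = 0.0117, 0.0148 and 0.0148), though the dimmer Txnip probe was at 0.05. Klf15, a transcription factor of fasting metabolism, rose by 0.51 ± 0.08 (SD, n = 3, limma adjusted p = 0.0143). The sestrins Sesn1 and Sesn3, stress-induced inhibitors of mTORC1, and Bcl6, a transcriptional repressor, rose by 0.29 ± 0.06, 0.26 ± 0.01 and 0.23 ± 0.03 (each SD, n = 3). Foxo6, the FoxO member enriched in hippocampal neurons, had a log2 ratio of -0.26 ± 0.14 (SD, n = 3) and fell by a limma adjusted p of 0.0487, just inside the threshold. The other 11 listed genes did not pass, among them Cdkn1b, Sod2 and Cat, at -0.01, -0.11 and -0.07. Whether FoxO proteins had a part in the ratios of this list was not tested.

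**Figure D4:**
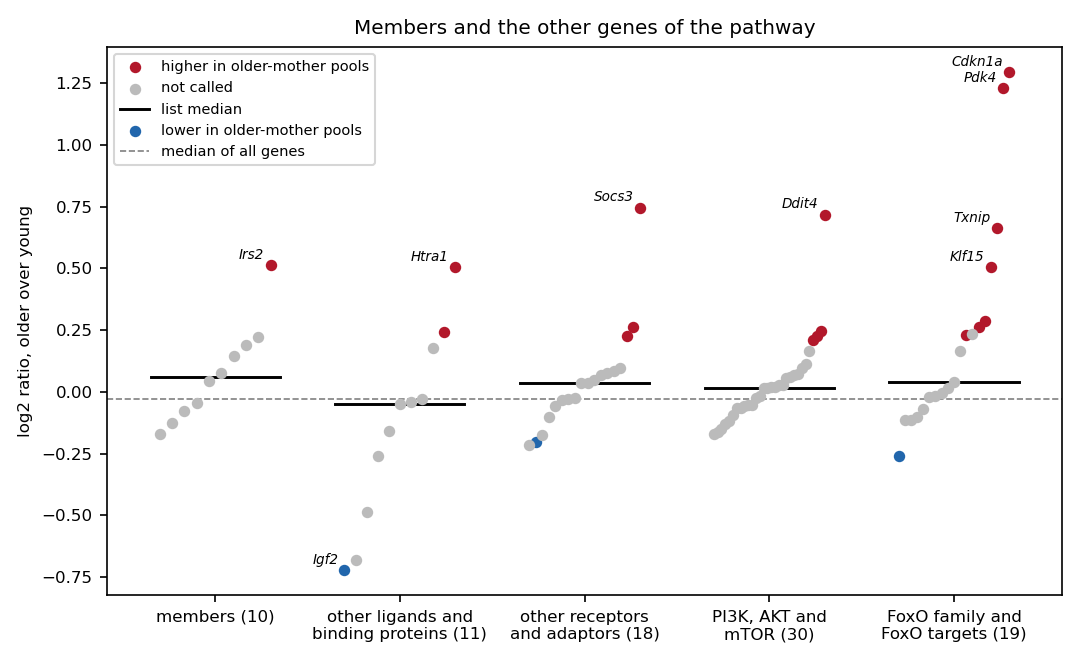
Log2 ratio of older over young mothers (y axis) for the brightest probe of each gene (points, sorted within each list) in the 10 members and in 4 lists of other pathway genes, with the number measured in parentheses, the list median as a black line and the all-gene median as a dashed line. The list medians run from -0.05 to 0.06 beside the all-gene median of -0.03, and Pdk4 (1.23) and Cdkn1a (1.30) stand highest.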

How the data were processed

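Total RNA of 3 older-mother and 3 young-mother hippocampal pools was measured on 3 two-colour Agilent arrays. Per the file headers, Agilent Feature Extraction 10.10.1.1 made the scanner files, whose mean and median spot signals and local backgrounds are raw intensity values. Its processed intensity values were corrected for background and dye, per the file headers, and its log10 ratio column, per the file headers Cy5 over Cy3, was not used. Flags for dim or outlying spots are of another (other) kind, per the file headers 0 or 1. Values in the deposited table are log2 ratios (older-mother Cy3 channel over the Cy5 channel). How the authors made them is not given in the sources used here; normexp with offset 50 and loess on the median signals gave the same values (largest difference 5.0e-10).

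Mean signals were corrected by normexp with an offset of 50, which pulls ratios of dim probes towards 0, and by loess with a span of 0.3 (limma 3.58.1, R 4.3.3, jsonlite 2.0.0). Outlying spots and control spots had weight 0. The 27631 probes well above background in 1 dye on all 3 arrays were kept and fitted together with an intercept (lmFit and eBayes, two-sided, 2 residual and 3.42 prior degrees of freedom, Benjamini-Hochberg over all kept probes). A gene was represented by its brightest kept probe. Levels per pool are normalized log2 intensities after loess and Aquantile. The labels do not say whether pools share litters, so p-values measure the spread between these pools. Each array pairs the pools of the same number, so the ratio is a paired measure. The members and lists were chosen with earlier results of these data known. Named genes are all members, the 4 with the smallest p of each pathway list, Igf2, Igf2r, Akt1, Mtor and Gsk3b (another gene of this rule is not reported here), and Ttr and 2 genes per marker list where described; Igfbp2, Ins1, Sesn1, Sesn3, Bcl6, Foxo6, Cdkn1b, Sod2 and Cat were added after their values were seen, and the printed sequences and motifs were also chosen then.

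The steps were tested on simulated spots of this comparison with 27631 probes: of 100 probes with a log2 change of 0.5, 34 were called (median estimate 0.36), of 100 with a change of 1, 81 were called (0.88), and 0 of 27431 unchanged probes were. The simulated dye difference was a smooth curve of brightness, the same on every array, and no probe had a dye effect of its own. The 0 therefore does not cover dye effects of single probes, which the real arrays cannot separate from the group. Alternatives were other signals, background settings, normalizations, filters, variance models, weights, separate channels, the mean over probes, and leaving out each replicate.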

Additional observations from a re-analysis of the deposited data

How the results depend on the processing

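The main counts were 1 member higher and 0 lower, 16 other pathway genes higher and 3 lower, and 2189 probes higher and 2946 lower. Members called higher numbered 2 with a variance trend and robust settings, 4 with array weights and 2 with the mean over probes; members called lower numbered 1 without background correction, 7 under median centring and 1 with array weights. Leaving out replicates gave 0 to 1 members higher, 0 to 0 lower, 1 to 8 pathway genes higher and 0 to 1 lower, and 29 to 1459 probes higher and 0 to 1906 lower. Other pathway genes called higher numbered 9 with Agilent's processed signals, 11 under median centring and 23 with array weights. Those called lower numbered 1 with processed signals, 7 without background correction, 1 with an offset of 16, 54 under median centring, 1 with the deposited table, 6 with a variance trend, 12 with array weights and 5 with separate channels (no replicate block). Probes higher and lower numbered 1169 and 1452 with processed signals, 5997 and 17006 under median centring and 5754 and 7552 with array weights; with the mean over probes 1236 were higher, of 17965 genes in place of probes. Under median centring the sign turned for Irs2 (-0.14), Foxo1 (-0.38), Insr (-0.047), Igf1r (-0.45) and Pik3r1 (-0.29), where the median of all genes was -0.40, and the 1 member called higher there was Foxo3. The sign of Foxo3 turned with processed signals (-0.24) and without background correction (-0.027), and that of Igf1 with the mean over probes (0.11). Without the pairing by array, fitted as separate channels with no replicate block, Irs2 had a log2 ratio of 0.51 (limma adjusted p = 0.00383) and 1 member was called higher. Apart from median centring and leaving out replicate 3, the call of Irs2 held under the alternatives run, with log2 ratios from 0.47 to 0.58. The strict filter gave no value for Foxo3. The causes were not tested.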
